A study of Mus musculus with 9 samples.

Results

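The genes described here are 37 genes of the tricarboxylic acid (TCA) cycle, of glutamine and glutamate metabolism and of the malate-aspartate shuttle, measured by RNA-Seq in mouse bone marrow-derived macrophages (BMDMs). They were chosen by symbol from a list that was drawn up with earlier results of these data known. Each of the 37 listed symbols was found among the 53465 genes counted. Where a symbol stood on several rows, the row with most reads was kept. The BMDMs came from the marrow of male wild-type mice (C57B6 in the labels, C57bl6/J in the study's methods), grown with 50 ng/ml CSF1 in DMEM that held 5 mM glutamine per the labels. One group was left untreated (UNX), the second received medium conditioned by pulmonary artery adventitial fibroblasts of control calves (CO-CM), and the third received medium of the same kind from fibroblasts of calves with hypoxia-induced pulmonary hypertension (PH-CM). Each group had 3 libraries. For the exposure, the growth protocol names 16 h and the treatment protocol 24 h. The study's methods give yet another duration, between these, and a lower glutamine concentration, so neither the exposure nor the glutamine of the medium is settled. Each medium was pooled from several fibroblast populations. The study's methods do not say how many calves gave them or whether the repeats shared a pool. The libraries therefore do not stand for single calves, and their p-values measure the spread between these cultures only. The medium is bovine and the responding cells are murine, and UNX cells had no medium of any fibroblast.

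The TCA cycle oxidizes acetyl-CoA made from pyruvate or fat to CO2 and passes the electrons to carriers of the respiratory chain. Glutamine enters the cycle through glutamate and 2-oxoglutarate, and cycle intermediates leave it as citrate, malate and aspartate for synthesis in the cytosol. The malate-aspartate shuttle carries the electrons of cytosolic NADH into mitochondria with a cytosolic and a mitochondrial malate dehydrogenase, a cytosolic and a mitochondrial aspartate aminotransferase and carriers of the inner membrane. In macrophages, activation is known to alter the cycle at isocitrate dehydrogenase and to divert cis-aconitate to itaconate.

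The libraries held between 62017933 and 84314201 reads on genes, of which 0.347% to 0.407% lay on the 37 members. All 37 passed the filter on low counts (over 1 CPM in at least 3 libraries), as did 11950 genes in all. Levels within a gene are given as TMM-scaled CPM (reads of the gene relative to the scaled library total), in the order of libraries 1, 2 and 3. Differences are log2 fold changes ± SE from one quasi-likelihood fit of edgeR over all 9 libraries, with Benjamini-Hochberg false discovery rates (FDR) over the 11950 genes. A gene was called when its FDR was at most 0.05 and its fold change at least 1.2 in either direction. The 7 macrophage markers checked (Csf1r, Adgre1, Cd68, Itgam, Mertk, Fcgr1 and Lyz2) were all expressed. Their summed level was 11483 to 12326 CPM in UNX, 18838 to 19781 in CO-CM and 20727 to 22404 in PH-CM, and 5 of the 7 were called higher in CO-CM and 6 of the 7 in PH-CM against UNX. The 6 fibroblast markers (Col1a1, Col1a2, Col3a1, Pdgfra, Dcn and Lum) summed to 194 to 245 CPM in UNX, 262 to 314 in CO-CM and 244 to 331 in PH-CM, with 2 of the 5 tested called higher in CO-CM and 4 of 5 in PH-CM. The neutrophil, lymphocyte and dendritic cell lists summed to at most 3.51, 0.150 and 0.582 CPM in any library, and Ly6g was at 0 in all. The part of these shifts in the results below was not tested. In bulk RNA, fewer cells of a type cannot be told apart from less RNA per cell.

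In PH-CM, 24 of the 37 members were called against UNX, 7 higher and 17 lower. This share, 64.9%, stood beside 63.0% of all genes tested (31.3% higher and 31.7% lower), so being called at all did not set the members apart, while 18.9% of them were higher and 45.9% lower. In CO-CM, 21 members were called against UNX, 6 higher and 15 lower, which is 56.8% of the members beside 57.0% of all genes (28.0% higher and 28.9% lower). Between the media, 11 members were called in PH-CM against CO-CM, 3 higher (Got1, Gpt2 and Pdp1) and 8 lower (Slc25a13, Mdh1, Pcx, Idh2, Idh3b, Idh3a, Slc25a10 and Got2), or 29.7% beside 27.1% of all genes (12.2% higher and 15.0% lower). The median log2 fold change of the members was -0.24 in PH-CM and -0.21 in CO-CM against UNX, with medians of 0.01 and 0.00 over all genes. Both comparisons with UNX use the same 3 untreated libraries, so they are set side by side and not as independent of each other. The summed level of the 37 members was 3875 ± 139 CPM (SD, n = 3) in UNX, 3649 ± 156 in CO-CM and 3707 ± 110 in PH-CM. These sums overlapped between groups, since gains in a few abundant members stood against losses in many.

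**Figure D1:**
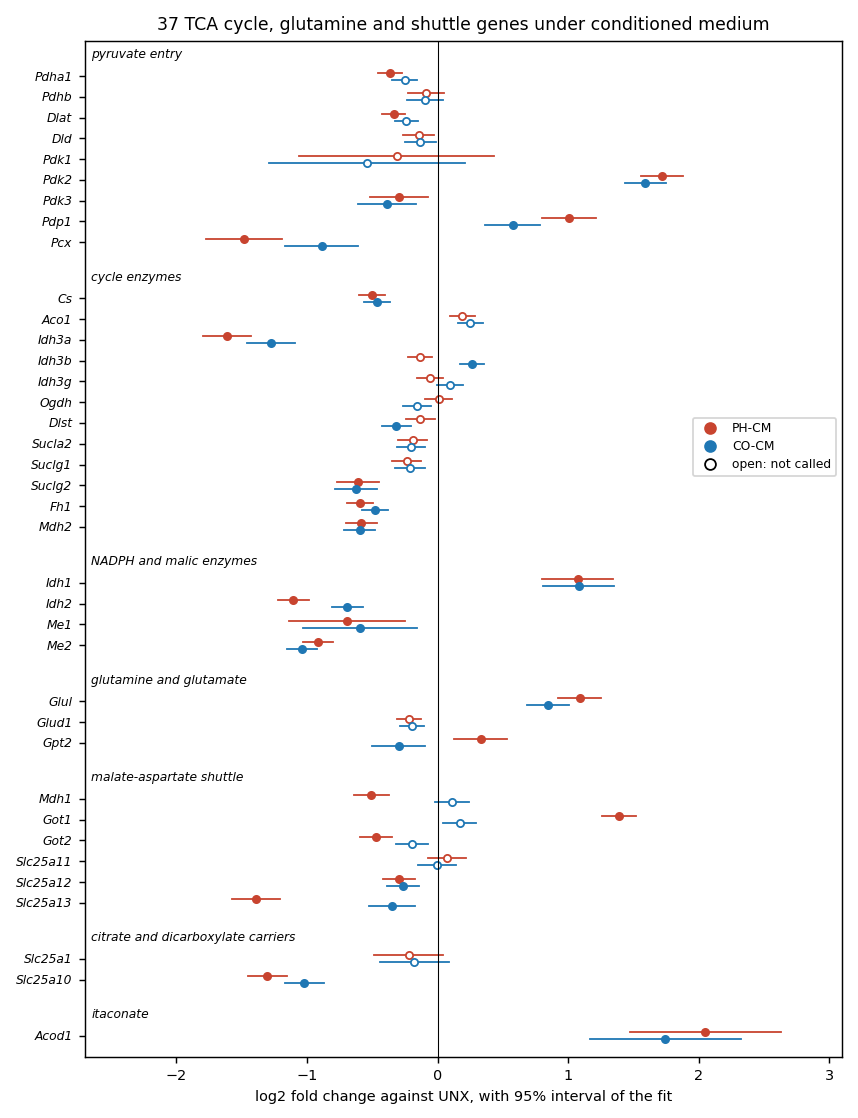
Log2 fold change (x axis) of each of the 37 members (y axis, grouped by role) in PH-CM (red) and CO-CM (blue) against UNX, with the 95% interval of the fit as lines; filled points were called. Most filled points lie left of 0, while Pdk2, Pdp1, Idh1, Glul and Acod1 lie to the right under both media, and Got1 is filled in PH-CM and open in CO-CM.

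The pyruvate dehydrogenase complex, which turns pyruvate into acetyl-CoA, was measured by Pdha1 (catalytic alpha subunit), Pdhb (beta subunit), Dlat (acetyltransferase) and Dld (the dehydrogenase subunit it shares with other complexes). Pdha1 read 88.2, 89.7 and 90.2 CPM in UNX, 74.6, 72.2 and 78.2 in CO-CM and 70.7, 69.3 and 68.4 in PH-CM, without overlap between any 2 groups. It fell in PH-CM, with a log2 fold change of -0.36 ± 0.043 (FDR = 2.10e-05), and in CO-CM its value of -0.25 ± 0.042 missed the fold change of 1.2 at an FDR of 0.000358. Dlat followed the same order, from 60.4, 59.5 and 61.9 CPM in UNX to 52.3, 50.5 and 51.2 in CO-CM and 48.5, 47.3 and 48.3 in PH-CM. Its difference was called in PH-CM (-0.34 ± 0.040, FDR = 2.44e-05) and not in CO-CM (-0.24 ± 0.040). Pdhb and Dld were not called in any comparison, with log2 fold changes against UNX between -0.14 and -0.09. Pdha1 shares 603 of its 3734 exonic bases with Map3k15 on the other strand, and the counting parameters listed in the study's methods set no strand, so reads there cannot be told apart. Map3k15 had 3497 reads in the 9 libraries and lay lower too, by log2 values of -0.49 in PH-CM (FDR = 0.0127) and -0.47 in CO-CM (FDR = 0.0165). Its part in the fall of Pdha1 was not tested.

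Kinases phosphorylate and inactivate this complex and a phosphatase reactivates it, and of these Pdk2, Pdk3 and Pdp1 were called against UNX under both media. Pdk2 (pyruvate dehydrogenase kinase 2) read 7.87, 8.04 and 8.25 CPM in UNX, 22.4, 26.8 and 23.7 in CO-CM and 26.3, 26.8 and 26.6 in PH-CM. All 6 libraries of treated cells lay above all untreated ones, and Pdk2 rose 3.30-fold in PH-CM (log2 1.72 ± 0.072, FDR = 1.09e-08) and 3.01-fold in CO-CM (log2 1.59 ± 0.072, FDR = 3.38e-08). The media overlapped in Pdk2, with a difference of 0.13 ± 0.069 and a 95% interval of -0.023 to 0.28. Pdp1, the catalytic phosphatase subunit, read 37.4, 49.8 and 47.7 CPM in UNX, 68.7, 65.4 and 67.0 in CO-CM and 86.9, 86.9 and 97.4 in PH-CM, 3 groups without overlap. Pdp1 rose under both media, by 1.01 ± 0.095 in PH-CM (FDR = 4.01e-06) and 0.57 ± 0.094 in CO-CM (FDR = 0.000302), and was higher in PH-CM than in CO-CM by 0.43 ± 0.094 (FDR = 0.00460). Transcripts of a kinase and of the opposing phosphatase thus rose in the same libraries. Pdk3 fell in both media, with log2 fold changes of -0.30 ± 0.10 in PH-CM (FDR = 0.0206) and -0.39 ± 0.10 in CO-CM (FDR = 0.00578). The PH-CM call of Pdk3 was lost without PH-CM library 1 (-0.26), UNX library 2 (-0.26) or UNX library 3 (-0.26).

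Pdk1 is the kinase of this family best known as a target of hypoxia-inducible factor. It read 116, 209 and 169.9 CPM in UNX, 57.3, 157 and 125 in CO-CM and 95.4, 166 and 137 in PH-CM, so that the groups overlapped and library 1 was the lowest of its group in each. In the main fit, which has no block, it was not called (-0.31 ± 0.34 in PH-CM, FDR = 0.417, and -0.54 ± 0.34 in CO-CM, FDR = 0.176). With no filter on low counts, and also no block, Pdk1 was called lower in CO-CM against UNX. Within libraries of the same number, PH-CM lay below UNX in all 3 numbers (log2 differences of -0.28, -0.33 and -0.31) and CO-CM did too (-1.02, -0.41 and -0.44). With the replicate block, which takes out such differences between the 3 numbers, the values were -0.31 in PH-CM (FDR = 0.0200), -0.60 in CO-CM (FDR = 0.000349) and 0.30 between PH-CM and CO-CM (FDR = 0.0371), and all 3 were called. Without CO-CM library 1, the difference between the media in the fit without a block was -0.090. Pcx, pyruvate carboxylase, which makes oxaloacetate from pyruvate and refills the cycle, read 8.61, 8.84 and 7.96 CPM in UNX, 4.45, 4.06 and 5.21 in CO-CM and 3.09, 2.58 and 3.42 in PH-CM. The 3 groups did not overlap, and Pcx was 2.79-fold lower in PH-CM (log2 -1.48 ± 0.13, FDR = 2.43e-06), 1.85-fold lower in CO-CM (log2 -0.89 ± 0.13, FDR = 0.000108) and 1.51-fold lower in PH-CM than in CO-CM (log2 -0.59 ± 0.13, FDR = 0.00538). Its level was low, at 160 to 684 reads a library.

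**Figure D2:**
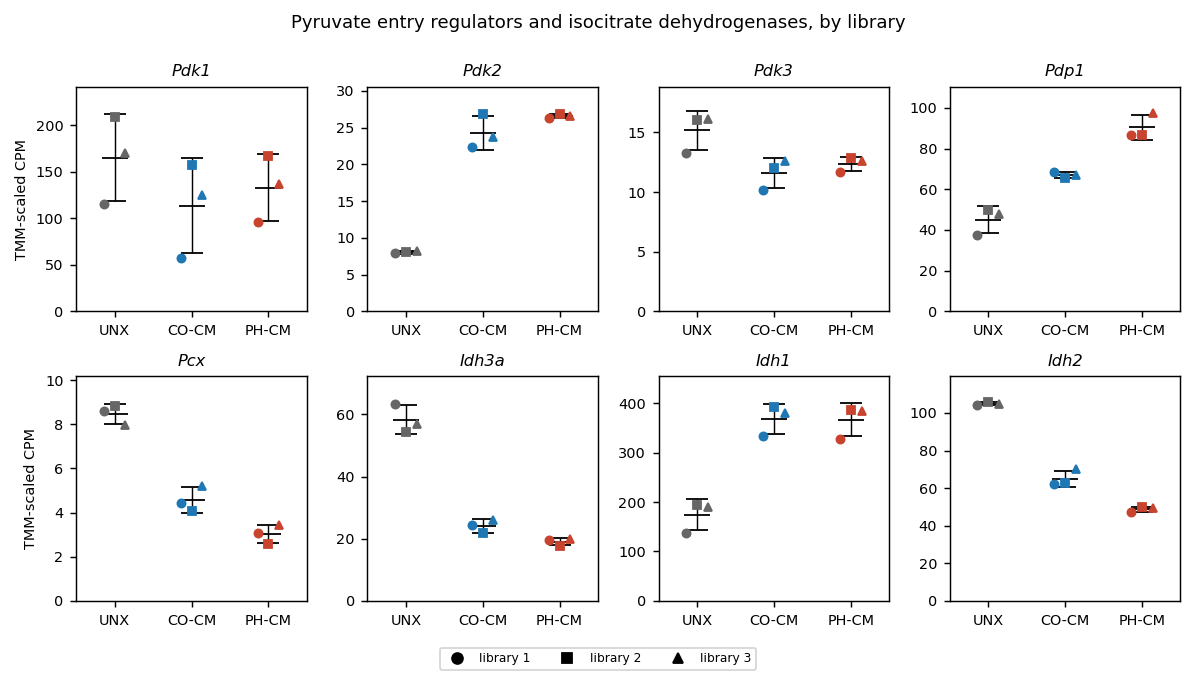
Level in TMM-scaled CPM (y axis, from 0) of 4 regulators of pyruvate dehydrogenase, Pcx and 3 isocitrate dehydrogenase genes in each library (points, one shape for each library number), with the mean and SD of each group of 3 as bars. Pdk2 and Idh1 are at like levels in CO-CM and PH-CM, Pdp1, Pcx, Idh3a and Idh2 are spread over 3 separate groups, and library 1 is the lowest Pdk1 value in every group.

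Of the 12 members that encode cycle enzymes, 5 fell and 0 rose in PH-CM, and 6 fell and 1 rose in CO-CM. The shares called, 41.7% in PH-CM and 58.3% in CO-CM, stand beside 63.0% and 57.0% of all genes, and the shares lower, 41.7% and 50.0%, beside 31.7% and 28.9%. Their summed level was 1549 ± 41 CPM (SD, n = 3) in UNX, 1296 ± 25 in CO-CM and 1283 ± 19 in PH-CM, with both media below UNX and overlapping each other. Cs, citrate synthase, which starts the cycle, fell from 290.3, 286 and 304 CPM in UNX to 212, 206 and 219 in CO-CM (log2 -0.47 ± 0.044, FDR = 5.77e-06) and 212, 202 and 208 in PH-CM (log2 -0.50 ± 0.044, FDR = 2.46e-06). Aco1, the cytosolic aconitase that can also act as an iron-sensing RNA-binding protein, lay above UNX by 0.19 ± 0.043 in PH-CM and 0.25 ± 0.043 in CO-CM, under the fold change of 1.2 in both. Ogdh and Dlst, of the 2-oxoglutarate dehydrogenase complex, were not called in PH-CM (0.0075 ± 0.047 and -0.13 ± 0.050), while Dlst fell in CO-CM (-0.32 ± 0.050, FDR = 0.000231, and -0.25 and not called with upper-quartile scaling).

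The NAD-dependent isocitrate dehydrogenase of the cycle is built from 3 kinds of subunit, and their transcripts differed in unequal measure. Idh3a, the catalytic alpha subunit, read 63.3, 54.4 and 57.0 CPM in UNX, 24.3, 21.8 and 26.1 in CO-CM and 19.7, 17.7 and 19.8 in PH-CM. The groups did not overlap, and Idh3a was 3.06-fold lower in PH-CM (log2 -1.61 ± 0.083, FDR = 4.47e-08) and 2.42-fold lower in CO-CM (log2 -1.28 ± 0.082, FDR = 3.29e-07), the lowest log2 values among the 37 members in both comparisons. It was lower in PH-CM than in CO-CM as well (-0.34 ± 0.083, FDR = 0.00906). Idh3b read 112, 110.5 and 113 CPM in UNX, 129, 134 and 140.0 in CO-CM and 102, 99.7 and 104 in PH-CM, with PH-CM below UNX and CO-CM above it. The difference of Idh3b between PH-CM and CO-CM was called (-0.40 ± 0.043, FDR = 5.54e-05), and that of PH-CM against UNX was not (-0.13 ± 0.043). The rise in CO-CM (0.26 ± 0.043, FDR = 0.000268) sat at the fold threshold and was lost in 8 of 18 alternatives. Among these were the omission of CO-CM library 3 (0.23), of PH-CM library 1 (0.26) and of UNX library 1, 2 or 3 (0.25, 0.24 and 0.25). Idh3g was not called, at -0.056 ± 0.045 in PH-CM and 0.095 ± 0.045 in CO-CM. Per length, in the authors' RPKM, Idh3a stood at 11.8 ± 1.1 (SD, n = 3) in UNX and 3.71 ± 0.25 in PH-CM, while Idh3b stood at 33.6 ± 0.64 and 29.4 ± 0.8 and Idh3g at 36.5 ± 0.86 and 33.7 ± 0.62.

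Succinyl-CoA ligase joins Suclg1 to either of 2 partner subunits, Sucla2 for ADP and Suclg2 for GDP. Suclg2 fell from 33.4, 29.6 and 32.7 CPM in UNX to 21.4, 19.1 and 21.6 in CO-CM (log2 -0.62 ± 0.071, FDR = 2.23e-05) and 22.1, 20.6 and 20.0 in PH-CM (log2 -0.61 ± 0.071, FDR = 2.10e-05). The other two were not called, with log2 fold changes of -0.19 ± 0.049 and -0.24 ± 0.051 in PH-CM. The ratio of Sucla2 to Suclg2 in RPKM was 2.03 ± 0.11 (SD, n = 3) in UNX, 2.72 ± 0.12 in CO-CM and 2.71 ± 0.12 in PH-CM. Fh1, fumarate hydratase, fell from 67.1, 64.2 and 68.8 CPM in UNX to 48.8, 46.7 and 48.1 in CO-CM (log2 -0.48 ± 0.045, FDR = 5.34e-06) and 43.3, 45.4 and 43.5 in PH-CM (log2 -0.60 ± 0.045, FDR = 7.58e-07). Mdh2, the mitochondrial malate dehydrogenase that closes the cycle and also serves the shuttle, fell from 235, 223 and 245 CPM in UNX to 151, 148 and 165 in CO-CM (log2 -0.60 ± 0.054, FDR = 4.09e-06) and 160.1, 154 and 155 in PH-CM (log2 -0.58 ± 0.054, FDR = 3.46e-06). For all of Suclg2, Fh1 and Mdh2 the media overlapped or were not called apart, with differences of 0.015 ± 0.072, -0.12 ± 0.045 and 0.012 ± 0.054.

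Of the 4 NADP-linked and malic enzymes, Idh1 rose under both media and Idh2, Me1 and Me2 fell. Idh1, the cytosolic isocitrate dehydrogenase that yields NADPH, read 138, 193 and 191 CPM in UNX, 334, 391 and 379.9 in CO-CM and 327, 386 and 384 in PH-CM. The media lay on top of each other and above every untreated library, with a 2.10-fold rise in PH-CM (log2 1.07 ± 0.12, FDR = 1.84e-05), a 2.12-fold rise in CO-CM (log2 1.08 ± 0.12, FDR = 2.24e-05) and a difference between media of -0.0091 ± 0.12 with an interval of -0.28 to 0.26. Idh2, its mitochondrial counterpart, read 104, 106 and 105 CPM in UNX, 62.0, 62.9 and 70.0 in CO-CM and 47.2, 49.8 and 49.4 in PH-CM. Its 3 groups were separate, and Idh2 fell, with log2 fold changes of -1.10 ± 0.053 in PH-CM (FDR = 2.67e-08) and -0.69 ± 0.052 in CO-CM (FDR = 1.12e-06) and was lower in PH-CM than in CO-CM (-0.41 ± 0.053, FDR = 0.000171). The ratio of Idh1 to Idh2 in RPKM went from 1.55 ± 0.27 (SD, n = 3) in UNX to 5.30 ± 0.44 in CO-CM and 7.00 ± 0.45 in PH-CM, without overlap. Me2, the mitochondrial NAD-linked malic enzyme, read 80.8, 84.8 and 85.8 CPM in UNX, 38.9, 41.1 and 42.4 in CO-CM and 42.0, 45.8 and 45.4 in PH-CM. It fell, with log2 fold changes of -0.92 ± 0.052 in PH-CM (FDR = 9.89e-08) and -1.04 ± 0.052 in CO-CM (FDR = 6.85e-08), and the media overlapped. Me1, the cytosolic NADP-linked form, was low, at 12.4, 8.73 and 10.1 CPM in UNX, 7.99, 5.10 and 7.56 in CO-CM and 7.71, 5.05 and 6.52 in PH-CM, and fell, with log2 fold changes of -0.69 ± 0.20 in PH-CM (FDR = 0.00896) and -0.59 ± 0.20 in CO-CM (FDR = 0.0205). The CO-CM call of Me1 was lost without CO-CM library 2 (-0.42) or UNX library 1 (-0.47).

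The members include 3 genes of glutamine and glutamate metabolism. Glul, glutamine synthetase, which makes glutamine from glutamate and ammonia, read 124, 148 and 143 CPM in UNX, 234, 267 and 246 in CO-CM and 287, 311 and 286 in PH-CM. The 3 groups did not overlap, and Glul rose by 1.09 ± 0.074 in PH-CM (FDR = 3.34e-07) and 0.85 ± 0.073 in CO-CM (FDR = 3.04e-06). Between the media its difference of 0.24 ± 0.073 (FDR = 0.0231) was under the fold change of 1.2, and it was called without CO-CM library 2 (0.30), PH-CM library 1 (0.27) or PH-CM library 3 (0.27). Glud1, glutamate dehydrogenase, which opens the way from glutamate to 2-oxoglutarate, was the most highly expressed member per length in UNX, at 116 ± 4.7 RPKM (SD, n = 3), and was not called in PH-CM (-0.22 ± 0.042, FDR = 0.000680) or CO-CM (-0.19 ± 0.042, FDR = 0.00183). Gpt2, the mitochondrial alanine aminotransferase, which also links glutamate to 2-oxoglutarate, read 23.1, 21.7 and 23.8 CPM in UNX, 17.0, 18.8 and 19.9 in CO-CM and 25.2, 32.4 and 28.6 in PH-CM. PH-CM lay above UNX and CO-CM below it, so that Gpt2 was the one member called in opposite directions, higher in PH-CM (0.33 ± 0.092, FDR = 0.00747) and lower in CO-CM (-0.30 ± 0.093, FDR = 0.0148). Both of those calls were near the fold threshold. The first was lost without PH-CM library 2 (0.24) and the second without CO-CM library 1 (-0.24). The direct difference between the media, a 1.55-fold higher level in PH-CM (log2 0.63 ± 0.093, FDR = 0.000446), was called under every alternative.

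The malate-aspartate shuttle was the role in which most members differed between the media. Of its 6 members, 4 were called in PH-CM against CO-CM, 1 higher and 3 lower, beside 27.1% of all genes. The grouping into roles was made with earlier results of these data known. Mdh2, which also serves the shuttle, was counted with the cycle enzymes and was not called between the media (0.012). Against UNX, 5 of the 6 were called in PH-CM, beside 63.0% of all genes, and 2 of the 6 (33.3%) in CO-CM, below the 57.0% of all genes. Got1, the cytosolic aspartate aminotransferase, read 74.8, 74.5 and 77.6 CPM in UNX, 83.8, 86.8 and 84.5 in CO-CM and 180.0, 204 and 211 in PH-CM. Every PH-CM library was above 2 times the highest CO-CM or UNX library, and Got1 rose 2.62-fold against UNX (log2 1.39 ± 0.058, FDR = 1.12e-08) and 2.33-fold against CO-CM (log2 1.22 ± 0.058, FDR = 2.51e-07). In CO-CM it was not called (0.17 ± 0.058, FDR = 0.0235). Got2, the mitochondrial aspartate aminotransferase, read 134, 131 and 146 CPM in UNX, 117, 117 and 125 in CO-CM and 104, 94.9 and 97.9 in PH-CM, with no overlap. It fell in PH-CM against UNX (-0.47 ± 0.055, FDR = 2.05e-05) and against CO-CM (-0.28 ± 0.055, FDR = 0.00279), the second near the fold threshold and lost without CO-CM library 3 (-0.25) or PH-CM library 2 (-0.25). In CO-CM Got2 was not called (-0.20 ± 0.055). The ratio of Got1 to Got2 in RPKM was 1.05 ± 0.04 (SD, n = 3) in UNX, 1.35 ± 0.06 in CO-CM and 3.83 ± 0.46 in PH-CM.

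Mdh1, the cytosolic malate dehydrogenase, read 127, 137 and 139 CPM in UNX, 133, 147 and 155 in CO-CM and 92.2, 94.0 and 97.6 in PH-CM. PH-CM lay below both other groups, which overlapped each other. Mdh1 fell in PH-CM against UNX (-0.51 ± 0.060, FDR = 2.15e-05) and against CO-CM (-0.62 ± 0.060, FDR = 2.81e-05) and was not called in CO-CM (0.11 ± 0.059, 95% interval -0.023 to 0.24). Since Mdh2 fell in both media and Mdh1 in PH-CM, the ratio of Mdh1 to Mdh2 in RPKM was 0.798 ± 0.051 (SD, n = 3) in UNX, 1.30 ± 0.07 in CO-CM and 0.841 ± 0.038 in PH-CM, so that UNX and PH-CM overlapped and CO-CM lay above both.

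Slc25a13 and Slc25a12 encode citrin and aralar, the 2 calcium-regulated carriers that exchange mitochondrial aspartate for glutamate. Slc25a13 read 83.2, 91.5 and 97.5 CPM in UNX, 62.6, 73.5 and 77.2 in CO-CM and 33.8, 35.1 and 34.9 in PH-CM, again 3 groups without overlap. It was 2.62-fold lower in PH-CM than in UNX (log2 -1.39 ± 0.082, FDR = 1.19e-07), 2.05-fold lower than in CO-CM (log2 -1.04 ± 0.081, FDR = 6.64e-06), and lower in CO-CM than in UNX (log2 -0.35 ± 0.079, FDR = 0.00249). Slc25a12 differed less, from 64.8, 59.0 and 64.2 CPM in UNX to 50.1, 51.0 and 55.0 in CO-CM and 49.3, 52.6 and 51.0 in PH-CM. It fell, with log2 fold changes of -0.30 ± 0.055 in PH-CM (FDR = 0.000582) and -0.27 ± 0.055 in CO-CM (FDR = 0.00137), and the media overlapped. The CO-CM call of Slc25a12 was lost without CO-CM library 1 (-0.24), CO-CM library 2 (-0.25) or UNX library 1 (-0.26), and with DESeq2 (-0.26). The ratio of Slc25a12 to Slc25a13 in RPKM was 0.359 ± 0.038 (SD, n = 3) in UNX, 0.381 ± 0.030 in CO-CM and 0.762 ± 0.012 in PH-CM. Slc25a11, the 2-oxoglutarate/malate carrier of the shuttle, was not called in any comparison and overlapped between all groups, at 96.0, 101 and 104 CPM in UNX, 91.8, 102 and 106 in CO-CM and 97.8, 111 and 108 in PH-CM. Its 95% intervals against UNX were -0.071 to 0.22 in PH-CM and -0.15 to 0.14 in CO-CM. The reads of Slc25a11 and of Rnf167, which share 189 exonic bases on opposite strands, cannot be told apart there. Rnf167 was higher than in UNX by log2 values of 0.92 in PH-CM and 0.86 in CO-CM.

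**Figure D3:**
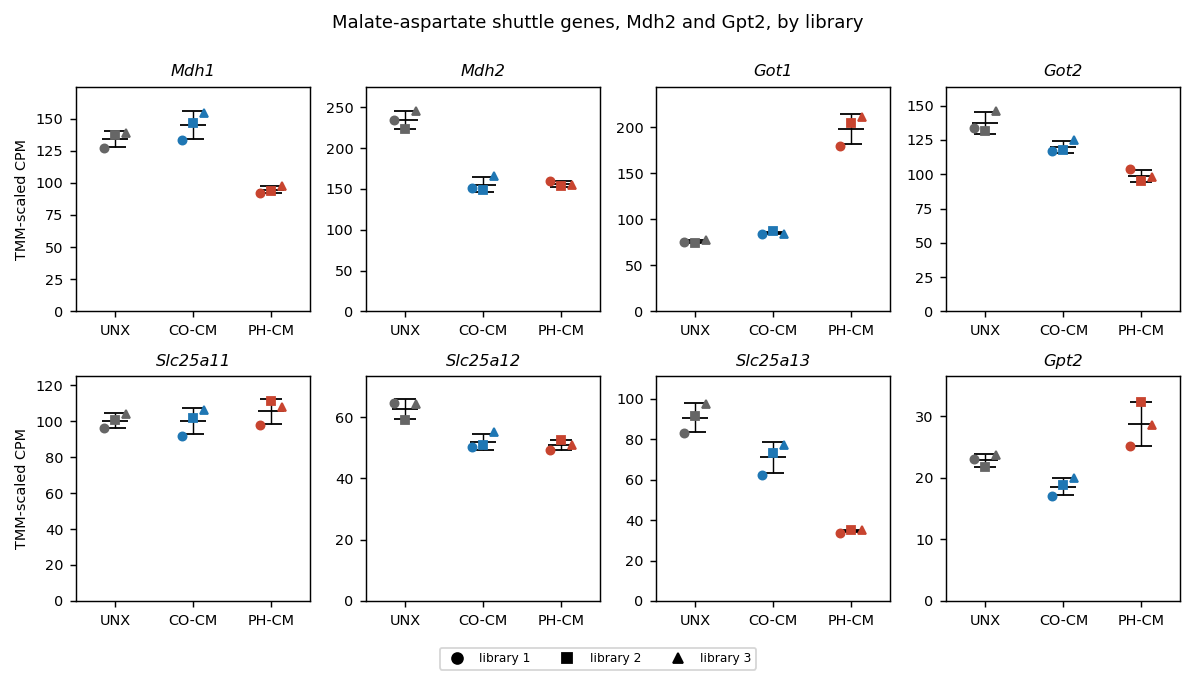
Level in TMM-scaled CPM (y axis, from 0) of the 6 shuttle members, Mdh2 and Gpt2 in each library (points, one shape for each library number), with the mean and SD of each group of 3 as bars. PH-CM stands apart from both other groups as high in Got1 and Gpt2 and as low in Mdh1, Got2 and Slc25a13, while Mdh2 and Slc25a12 are at like levels in CO-CM and PH-CM.

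The stretch upstream of the start site is shown for the 3 members that differed most between the media and had an entry on the files' build, Got1, Slc25a13 and Gpt2. Each run holds the 250 bases before the RefSeq start site on GRCm38.p6, 5′ to 3′ on the gene's strand, with the letters of any searched motif in capitals.
Got1, minus strand, chr19:43524606-43524855: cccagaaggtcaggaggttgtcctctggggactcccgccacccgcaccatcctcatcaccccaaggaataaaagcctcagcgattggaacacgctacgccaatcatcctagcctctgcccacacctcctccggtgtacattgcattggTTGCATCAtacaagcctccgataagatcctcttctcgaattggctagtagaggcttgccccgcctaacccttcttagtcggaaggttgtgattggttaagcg
Slc25a13, minus strand, chr6:6217174-6217423: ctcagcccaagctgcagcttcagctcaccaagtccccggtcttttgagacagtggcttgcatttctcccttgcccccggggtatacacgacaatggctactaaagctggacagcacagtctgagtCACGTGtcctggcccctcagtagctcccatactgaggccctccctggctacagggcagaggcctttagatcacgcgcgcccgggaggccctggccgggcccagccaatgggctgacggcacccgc
Gpt2, plus strand, chr8:85492326-85492575: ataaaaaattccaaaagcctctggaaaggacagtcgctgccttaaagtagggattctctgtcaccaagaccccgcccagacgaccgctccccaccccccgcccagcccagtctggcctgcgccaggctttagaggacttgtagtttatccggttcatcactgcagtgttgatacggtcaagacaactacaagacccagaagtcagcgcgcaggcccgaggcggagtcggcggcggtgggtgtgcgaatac
Of the 37 members, 34 had a window to search, and these had 44 windows in all. The letters TGATGNAA, the core of the element bound by ATF4 and its partners, were searched on either strand. They were found in 1 member (2.94%), Got1, beginning 102 bases before its start site. Of all genes with a window 3.91% held them, and of the 32851 promoter windows 3.45% did. ACGTG, the core of the element bound by hypoxia-inducible factors, was found in 11 of the 34 members (32.4%) and in 18.5% of all 27025 genes with a window. By window this was 16 of 44 beside 16.6% of all windows, but 6 of the 16 were windows of Ogdh, several of which overlap and which hold the motif at 3 separate places. In Slc25a13 it was read on both strands of a single CACGTG, the motif that begins 125 bases before the start site and overlaps its own reverse complement. TGACNNNGC of the antioxidant response element was in 3 members (8.82%, beside 11.5% of all genes with a window). GCGCANGCG of NRF1 was in 2 (5.88% beside 5.86%) and GGGNNTTTC of NF-kB in 1 (2.94% beside 4.35%). TCACNCCAC of the sterol response element was in 0 members, beside 1.22% of all genes. Such a match is a description of letters in these windows, and nothing was measured on binding.

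On GRCm38, Got1 (ENSMUSG00000025190) lies on the minus strand of chr19:43499752-43524605, with 9 merged exons of 2539 bases. Slc25a13 (ENSMUSG00000015112) lies on the minus strand of chr6:6041218-6217173 with 20 merged exons of 3798 bases. Gpt2 (ENSMUSG00000031700) lies on the plus strand of chr8:85492576-85527560 with 12 merged exons of 5643 bases, and Mdh1 (ENSMUSG00000020321) on the minus strand of chr11:21556787-21572367 with 9 merged exons of 2567 bases. The exons of Mdh1 share 52 bases with Wdpcp on the other strand. Wdpcp was higher in CO-CM (0.95) and in PH-CM (0.67) than in UNX, opposite to the fall of Mdh1 in PH-CM. Got1, Slc25a13 and Gpt2 had no overlapping gene in the annotation. Among the other members called, Got2 shares 434 exonic bases with Gm45760 (2 reads in the 9 libraries), Slc25a10 shares 228 with Gm11788 (22 reads), Glul shares 116 with Teddm2 (196 reads), Me1 shares 30 with A330041J22Rik (2 reads) and Idh3b shares 5 with Nop56 (33582 reads), all on opposite strands. Nop56 was lower in PH-CM (-1.75) and in CO-CM (-1.63) than in UNX.

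Of the 2 carriers that move cycle acids out of mitochondria, 1 fell. Slc25a10, the dicarboxylate carrier for malate and succinate, read 68.1, 72.9 and 76.1 CPM in UNX, 32.1, 37.0 and 37.8 in CO-CM and 28.6, 29.7 and 29.7 in PH-CM. All treated libraries lay below all untreated ones, and Slc25a10 was 2.47-fold lower in PH-CM (log2 -1.30 ± 0.068, FDR = 5.12e-08) and 2.03-fold lower in CO-CM (log2 -1.02 ± 0.067, FDR = 4.19e-07). Its call in PH-CM against CO-CM (-0.28 ± 0.068, FDR = 0.00824) was lost without CO-CM library 2 (-0.25), CO-CM library 3 (-0.24) or PH-CM library 1 (-0.26). Slc25a1, the citrate carrier, was not called, at 71.8, 101 and 96.6 CPM in UNX, 70.4, 84.1 and 83.6 in CO-CM and 71.8, 80.7 and 78.7 in PH-CM. As with Pdk1 and Idh1, library 1 was the lowest of its group in each, and without UNX library 1 Slc25a1 was called lower in PH-CM (-0.37) and in CO-CM (-0.33). Slc25a1 was also called lower in PH-CM against UNX with library size alone and with no filter on low counts.

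Acod1 encodes the enzyme that makes itaconate from cis-aconitate and is known as a gene of inflammatory activation. It read 2.92, 1.75 and 1.47 CPM in UNX, 5.94, 8.71 and 5.68 in CO-CM and 6.90, 8.37 and 9.88 in PH-CM, from 126 to 624 reads a library. All treated libraries were above all untreated ones, and Acod1 rose 4.14-fold in PH-CM (log2 2.05 ± 0.26, FDR = 3.82e-05) and 3.35-fold in CO-CM (log2 1.74 ± 0.26, FDR = 0.000153), the highest log2 values among the members in both comparisons. The media overlapped, with a difference of 0.31 ± 0.24 and an interval of -0.22 to 0.84. Per length it stayed among the low members, at 0.804 ± 0.315 RPKM (SD, n = 3) in UNX and 3.15 ± 0.53 in PH-CM.

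**Figure D4:**
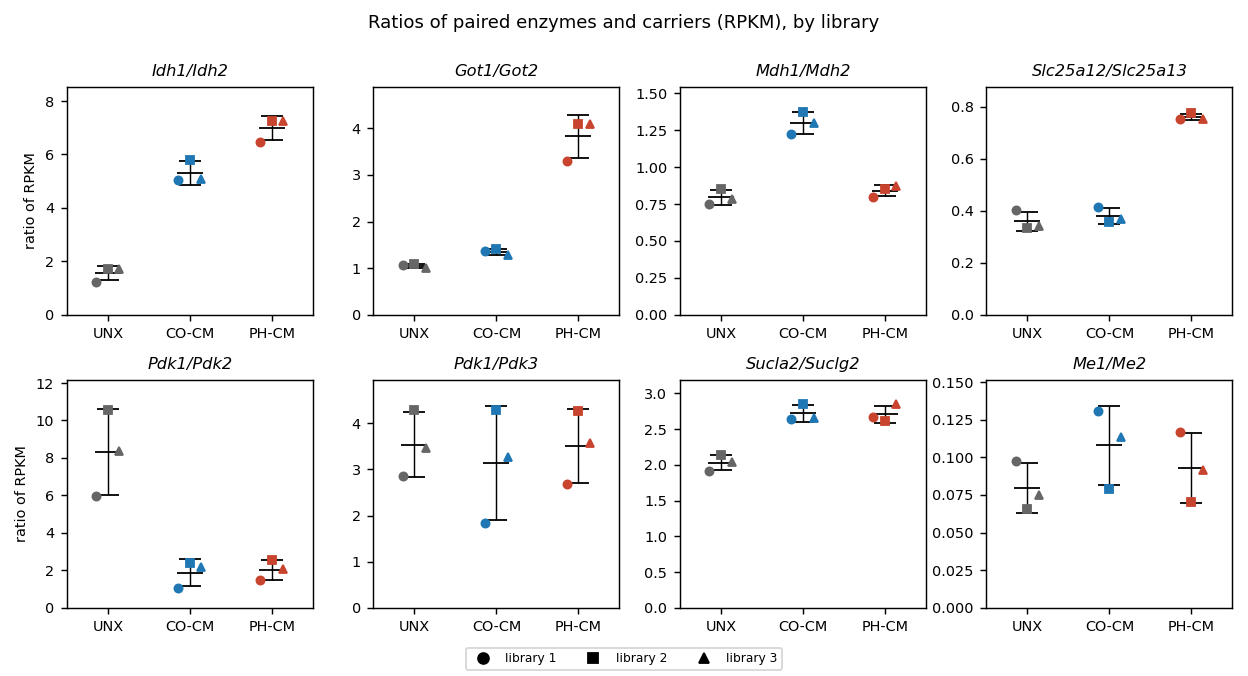
Ratio of RPKM (y axis, from 0) of 8 pairs of related enzymes or carriers in each library (points, one shape for each library number), with the mean and SD of each group of 3 as bars. Slc25a12/Slc25a13 is near UNX in CO-CM and high in PH-CM. Got1/Got2 is above UNX in CO-CM, without overlap, and much higher in PH-CM. Idh1/Idh2 is high in both media, Mdh1/Mdh2 is high in CO-CM, and Pdk1/Pdk3 overlaps between all groups.

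The ratios of the remaining pairs followed the members already named. Pdk1 to Pdk2 in RPKM fell from 8.30 ± 2.29 (SD, n = 3) in UNX to 1.86 ± 0.72 in CO-CM and 2.03 ± 0.53 in PH-CM, without overlap of the untreated with the treated libraries. Pdk1 to Pdk3 overlapped between groups, at 3.54 ± 0.71, 3.14 ± 1.23 and 3.51 ± 0.80. Me1 to Me2 stood at 0.0795 ± 0.0164, 0.108 ± 0.026 and 0.0930 ± 0.0233 with overlap. The ratios are descriptions, since an exact permutation test of 3 against 3 libraries cannot give a p under 0.1.

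**Figure D5:**
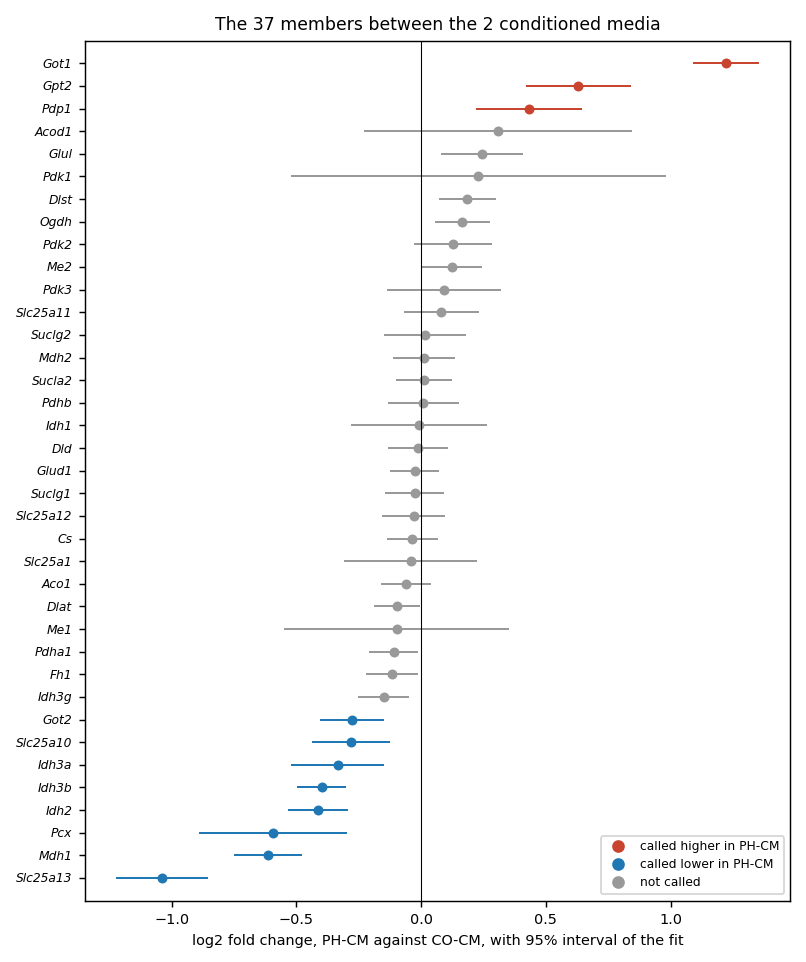
Log2 fold change (x axis) of each of the 37 members (y axis, in order of the value) in PH-CM against CO-CM, with the 95% interval of the fit as lines; red and blue points were called higher and lower in PH-CM. Got1 at 1.22 and Slc25a13 at -1.04 lie at the ends, and 26 members in grey were not called.

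Of 32 other genes of these pathways on a fixed list, 26 passed the filter on low counts. In PH-CM against UNX 14 of the 26 were called, 3 higher and 11 lower, in CO-CM against UNX 12 were called, 3 higher and 9 lower, and in PH-CM against CO-CM 5 were called, 1 higher and 4 lower. These shares of 53.8%, 46.2% and 19.2% lie below the 63.0%, 57.0% and 27.1% of all genes. Of the 6 with the smallest FDR, 5 are described. Slc1a5, a plasma membrane carrier for glutamine and other neutral amino acids, read 90.3, 75.1 and 91.8 CPM in UNX, 42.4, 44.0 and 49.0 in CO-CM and 33.6, 32.8 and 35.3 in PH-CM, and fell, with log2 fold changes of -1.34 ± 0.083 in PH-CM (FDR = 1.73e-07) and -0.92 ± 0.082 in CO-CM (FDR = 3.43e-06). Slc38a2, another such carrier, fell, with log2 fold changes of -0.43 ± 0.10 in PH-CM (FDR = 0.00214) and -0.91 ± 0.10 in CO-CM (FDR = 1.51e-05) and was higher in PH-CM than in CO-CM (0.48 ± 0.10, FDR = 0.00336). Thus Glul rose while these 2 uptake carriers fell in the same libraries. Pck2, the mitochondrial phosphoenolpyruvate carboxykinase, fell, with log2 fold changes of -1.13 ± 0.10 in PH-CM (FDR = 2.57e-06), -0.34 ± 0.10 in CO-CM (FDR = 0.0106) and -0.79 ± 0.10 in PH-CM against CO-CM (FDR = 0.000163). Acly, which splits exported citrate into acetyl-CoA and oxaloacetate, fell, with log2 fold changes of -0.41 ± 0.056 in PH-CM (FDR = 6.32e-05) and -0.66 ± 0.056 in CO-CM (FDR = 2.61e-06). Mpc1, a subunit of the mitochondrial pyruvate carrier, rose by 0.64 ± 0.077 in PH-CM (FDR = 2.48e-05) and 0.80 ± 0.077 in CO-CM (FDR = 6.23e-06). It has a pseudogene with 2939 reads beside its own 11563, so its counts are uncertain to that degree.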

How the data were processed

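RNA of 9 BMDM cultures, 3 each of UNX, CO-CM and PH-CM, was sequenced as paired reads from mRNA-selected libraries. The authors used AfterQC to trim the reads and STAR 2.6.0c to align them to GRCm38, and counted them per gene with featureCounts 1.6.2, and the deposited counts are those raw counts. The authors also deposited RPKM values (reads scaled by gene length and library size), used here only for levels compared between genes and for ratios. Read quality had been checked with FastQC 0.11.5. Tables of the authors' own comparisons, with log2 fold changes, p-values and FDR for the 3 pairs of groups, were not used. The submitters' processing notes also name edgeR 3.14 and R 3.4.3. Counts under 20 were even in 81.4% to 83.8% of cases in each library, and the listed counting parameters set neither pairs nor strand, so mates were taken to be counted singly and without strand.

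Genes over 1 CPM in at least 3 libraries were kept (11950 of 53465), scaled by TMM and fitted once over all 9 libraries with the quasi-likelihood test of edgeR 4.0.16 in R 4.3.3. A call required a fold change of 1.2 or more in either direction with a Benjamini-Hochberg FDR no higher than 0.05. The script was tested on simulated data. Levels per library use the TMM-scaled size of the kept genes. Alternatives were DESeq2 1.42.0, the exact test of edgeR, other scalings and filters, fold thresholds, a fit of only the 2 groups compared, a replicate block and the omission of each library. The numbers 1 to 3 in the labels were checked as pairing: deviations from the group means correlated at 0.276 to 0.484 between libraries of the same number (9 pairs) and at -0.376 to 0.042 between others (18 pairs), so the blocked value is given where it changes a call. No source ties a number to one repeat of the experiment. Libraries of a group differed by more than counting noise, with a mean chi-square of 10.6 to 57.1 per gene. The members, the other pathway genes, the markers and the motifs were chosen with earlier results of these data known. All members are named, by role, and of the other pathway genes 5 of the 6 with the smallest FDR, since 1 is not reported here. Got2 had a second row of 38 reads, a pseudogene, that was left out. Promoter windows came from RefSeq on GRCm38.p6 and gene positions from the GENCODE annotation of GRCm38. Idh3a, Pdp1 and Me2 had no window searched.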

Additional observations from a re-analysis of the deposited data

How the results depend on the processing

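Of the 56 calls of a member in a comparison, 47 held under all 18 alternatives tried for each, and none of the 56 changed sign under any of them. Calls lost under at least one alternative numbered 9: Pdk3 and Gpt2 in PH-CM against UNX, Idh3b, Gpt2, Slc25a12, Me1 and Dlst in CO-CM against UNX, and Got2 and Slc25a10 in PH-CM against CO-CM. Of these, Me1 kept a fold change over 1.2 throughout and was lost as its FDR rose to as much as 0.0734. Gpt2 in CO-CM was also lost with upper-quartile scaling, at -0.23, and Slc25a12 in CO-CM with DESeq2 size factors, with upper-quartile scaling and with a fit of only the 2 groups. Idh3b in CO-CM was also lost with library size alone, with filterByExpr and with no filter on low counts. Without these libraries or filters some members near the threshold were added, such as Pdha1 in CO-CM (7 alternatives, down to -0.32). Requiring a fold change of at least 2 left 11 members called in PH-CM against UNX (6 higher and 5 lower), 6 in CO-CM against UNX (3 and 3) and 2 in PH-CM against CO-CM (1 and 1). The share of all genes called at a fold change of 2 was not counted, so these numbers cannot be set against genes at large. All other alternatives kept each count of called members within 1.5 times. With one library left out at a time, the counts were 23 to 26, 19 to 22 and 9 to 12 in these comparisons. Over all genes tested, the same omissions gave 7222 to 7558, 6440 to 6757 and 2764 to 3376 calls.

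The replicate block left every other member's call as it was and added Pdk1 in all 3 comparisons, so that 25, 22 and 12 members were called. Among all 11950 genes the block gave 7714, 7037 and 3632 calls, beside 7534, 6806 and 3244 in the main fit. Some members that were not called changed sign, most of them near 0. In PH-CM against CO-CM, Idh1 was 0.0036 with library size alone, and upper-quartile scaling gave -0.026 for Mdh2, -0.029 for Pdhb, -0.026 for Sucla2 and -0.022 for Suclg2. Ogdh in PH-CM against UNX was -0.031 with filterByExpr, -0.050 with library size alone and -0.037 with no filter. Slc25a11 in CO-CM against UNX was 0.0011 with only the 2 groups and 0.060 with upper-quartile scaling. With single libraries left out, the ranges in PH-CM against CO-CM were -0.054 to 0.029 for Dld, -0.075 to 0.074 for Idh1, -0.019 to 0.061 for Mdh2, -0.27 to 0.049 for Me1, -0.033 to 0.081 for Pdhb, -0.090 to 0.54 for Pdk1, -0.12 to 0.015 for Slc25a1, -0.057 to 0.011 for Slc25a12, -0.011 to 0.048 for Sucla2, -0.054 to 0.019 for Suclg1 and -0.039 to 0.049 for Suclg2. The same omissions gave -0.024 to 0.047 for Ogdh in PH-CM against UNX and -0.051 to 0.052 for Slc25a11 in CO-CM against UNX. The cause of these changes was not tested. The authors' RPKM, which carry no TMM scaling, shifted the 111 log2 ratios of mean levels by -0.078 to 0.017, and no called ratio changed sign.

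Limits: with 3 libraries a group, differences under the fold change of 1.2 were not called whatever their FDR. Without that threshold 31, 31 and 15 members passed the FDR. The share of all genes that passed on FDR alone was not counted, so these numbers do not set the members apart. All libraries were deep, so depth bears mainly on Acod1, Pcx, Me1, Pdk3 and Pdk2. Transcript levels say nothing of enzyme activity or flux, which were not analysed here.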

Other observations

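Library 1 stood low among the members more often than among genes at large. In 13 of the 37 members (35.1%) library 1 had the lowest level of its group in UNX, CO-CM and PH-CM alike, while this held for 16.5% of the 11950 genes tested. The 13 were Pdhb, Pdk1, Pdk2, Pdk3, Ogdh, Idh1, Idh2, Me2, Mdh1, Slc25a11, Slc25a13, Slc25a1 and Slc25a10. Library 2 was lowest in all groups in 7 members (18.9%) and in 9.57% of genes, and library 3 in 0 members and 8.69% of genes. In Pdk1 the difference between libraries of one group was wider than the difference between the groups, as the spread in UNX from 116 to 209 CPM shows. These shares were looked at after the values were seen and are given as a description.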
